A study of Mus musculus with 8 samples.

Results

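The miR-17/92 and miR-106a/miR-363 clusters are paralogous groups of miRNA genes, each transcribed as 1 long precursor from which several mature miRNAs are cut. Their 10 mature miRNAs were taken by name from the 566 mouse miRNAs on the array: mmu-miR-17, mmu-miR-18a, mmu-miR-19a, mmu-miR-19b, mmu-miR-20a and mmu-miR-92a of the first cluster, and mmu-miR-106a, mmu-miR-18b, mmu-miR-20b and mmu-miR-363 of the second. Of these 10, 6 were bright enough to be compared, against 189 of the 566 miRNAs in all. The tissue was brown adipose tissue of 6 male C57Bl6N mice aged 8 weeks, with no allele or agent named. Mice 1, 2 and 3 had spent 24 h at 8 °C, and mice 4, 5 and 6 were room temperature mice (21 °C). Small RNA was read on 8 single-colour Agilent arrays, 2 each for mice 1 and 4, whose arrays were averaged so that n = 3 mice per group. The slide carried the cold arrays along 1 row and the room temperature arrays along the other, so array row and temperature cannot be told apart. The whole tissue was extracted, so fewer cells of a type and less RNA per cell cannot be told apart either.

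A miRNA recognises its target mRNAs mainly through its seed, a short stretch near the 5′ end, and lowers their translation and stability. The miR-17/92 cluster is best known as a driver of proliferation, and the miR-17/20 seed group represses cell cycle brakes such as Cdkn1a and Rbl2. The miR-18 seed group targets the matrix gene Ctgf, and miR-92a restrains vessel growth in endothelium through the integrin gene Itga5. In mouse preadipocytes the cluster promotes fat cell differentiation, and in humans miR-92a in serum exosomes has been related inversely to brown fat activity.

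All 10 members matched a mature sequence in RefSeq (GRCm38.p6). The sequences are shown because the members of a seed group differ at few bases, which bears on what a hybridisation array can separate. They are written 5′ to 3′ with the seed, bases 2 to 8, in capitals. The 4 members of the 17/20 seed group come first, followed by the pairs of the 18, 19 and 92 seed groups.
mmu-miR-17: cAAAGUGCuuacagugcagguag
mmu-miR-20a: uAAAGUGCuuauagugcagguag
mmu-miR-106a: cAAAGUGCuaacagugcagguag
mmu-miR-20b: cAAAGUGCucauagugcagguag
mmu-miR-18a: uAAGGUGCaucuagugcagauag
mmu-miR-18b: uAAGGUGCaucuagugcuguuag
mmu-miR-19a: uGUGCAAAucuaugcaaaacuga
mmu-miR-19b: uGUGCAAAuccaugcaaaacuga
mmu-miR-92a: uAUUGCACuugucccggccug
mmu-miR-363: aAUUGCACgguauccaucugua

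Counting bases from 1 at the 5′ end, mmu-miR-106a differs from mmu-miR-17 by the single substitution U10A. From mmu-miR-17 to mmu-miR-20b the differences are U10C and C12U, and from mmu-miR-17 to mmu-miR-20a they are C1U and C12U. The mmu-miR-19 pair differs by U11C, and the mmu-miR-18 pair by A18U and A20U. In the 92 seed group the sequences diverge outside the seed, with 11 of 21 aligned positions different. The arrays' probe sequences were not used here, and how much signal a probe took from a near-identical member was not tested.

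The miR-17/92 hairpins lie at chr14:115043671-115044506 on the + strand of GRCm38.p6, 6 hairpins within 836 bases. The miR-106a/miR-363 hairpins lie at chrX:52741693-52742567 on the − strand, 6 hairpins within 875 bases. Mature mmu-miR-19b and mmu-miR-92a have a hairpin in each cluster with the same mature sequence, so their signal cannot be assigned to a locus. In the RefSeq annotation the long non-coding RNA gene Mir17hg overlaps all 80 bases of the Mir92-1 hairpin and 2 of the 87 bases of Mir19b-1, and the long non-coding RNA gene Kis2 overlaps 5 of the 65 bases of Mir106a.

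The brown fat miRNAs miR-193b, miR-365, miR-455 and miR-378 were all well above background on every array. Over them the summed unscaled signal per mouse was 6408 to 11335 units in cold mice and 7794 to 13478 in room temperature mice. Of these 4, miR-193b and miR-378 passed the test as higher in the cold. After scaling, 3 of the 4 skeletal muscle miRNAs and both listed stromal miRNAs passed limma's adjusted test as lower in the cold. miR-199a-5p, the other arm of the stromal miR-199a-3p and added here after its value was seen, differed the other way by 0.68 (limma adjusted p = 0.169). The 4 leukocyte miRNAs had limma adjusted p-values from 0.151 to 0.92, and the 2 endothelial ones 0.525 and 0.531. The sums that follow are unscaled, and unscaled the median difference over all miRNAs was −0.46 on the log2 scale. The sum over the 4 skeletal muscle miRNAs was 1948 to 6655 units in cold mice and 10495 to 24280 in room temperature mice. The liver miRNA miR-122 was detected on 0 of 4 cold arrays and all 4 room temperature arrays, at 1.17 to 1.74 and 7.01 to 177 units. Sums were 407 to 914 against 1049 to 1619 units for 4 leukocyte miRNAs, 431 to 527 against 842 to 1302 units for 2 stromal miRNAs, and 7476 to 12482 against 11310 to 18880 units for 2 endothelial miRNAs, cold against room temperature, and the endothelial ranges overlap. The part of these cells in the results below was not tested. The 75th percentile by which each array was scaled ran from 574 to 918 units on the cold arrays and from 863 to 1408 units on the room temperature arrays.

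Detection differed among the members. A probe was counted as well above background on an array when more than 0.5 of its spots carried that mark from the scanner software. Both probes of mmu-miR-19a, mmu-miR-19b, mmu-miR-20a, mmu-miR-92a and mmu-miR-20b were detected on all 8 arrays. By its brighter probe, mmu-miR-18a was detected on 2 of 4 cold and 4 of 4 room temperature arrays, so it entered the test through the room temperature group alone. mmu-miR-17 was detected on 0 cold arrays and 1 room temperature array, and mmu-miR-106a on 0 and 2. mmu-miR-18b and mmu-miR-363 were detected on none of the 8 arrays. Of the 4 miRNAs encoded only in miR-17/92, 3 were measured, of the 4 encoded only in miR-106a/miR-363 only mmu-miR-20b was, and both miRNAs encoded in the 2 clusters were. Per array, 5 or 6 of the 10 members were detected in the cold and 6 to 8 at room temperature, where mouse 6 had the most, with 15 of the 22 member probes. Detection over all 1712 probes went the same way. It was 303 to 335 probes on the cold arrays and 352 to 423 on the room temperature arrays, with 423 in mouse 6. Lower detection in the cold was thus not particular to the members.

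After 24 h of cold, none of the 6 measured members passed the test with limma at a Benjamini-Hochberg adjusted p of 0.05 over all 189 miRNAs, of which 15.3% passed. The one nearest to the threshold was mmu-miR-92a, which was 1.44-fold higher in the cold mice (95% interval 1.13 to 1.84). The other 5 members differed by between −0.25 and 0.13 on the log2 scale. Of the 6, 3 were higher and 3 lower, with a median difference of 0.0086, and the median over all 189 miRNAs was −0.022. Alone among the 6, mmu-miR-92a had groups of mice that did not overlap, against 38.6% of all measured miRNAs. At an unadjusted p under 0.05 there was 1 member, mmu-miR-92a, among 62 miRNAs in all.

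**Figure D1:**
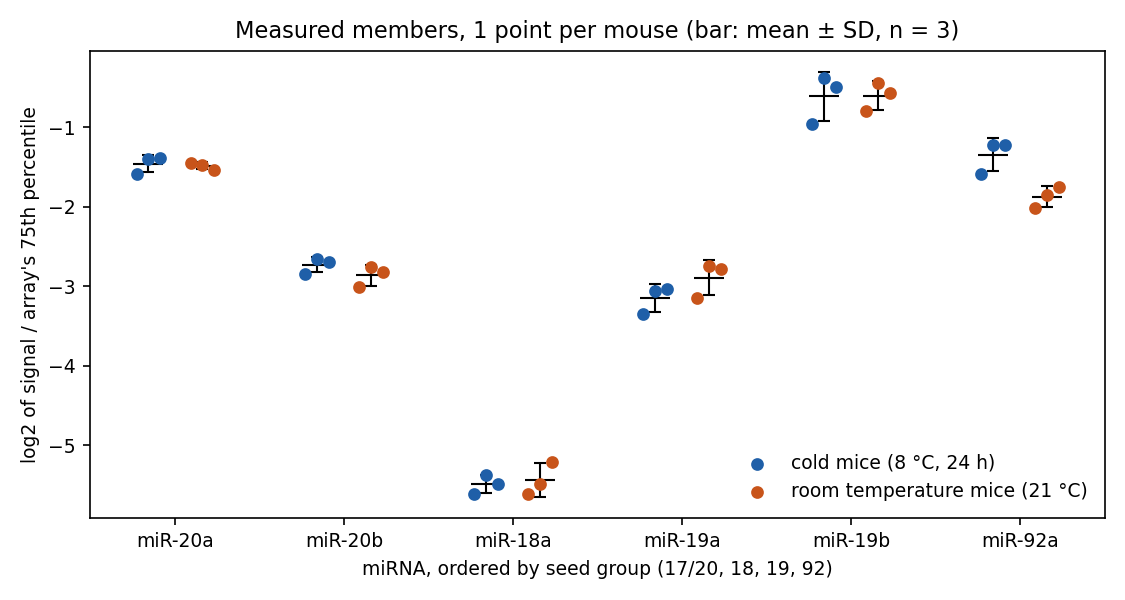
Scaled level of each measured member, as log2 of signal over the array's 75th percentile (vertical axis), with 1 point per mouse and bars for mean ± SD (n = 3 per group). The groups overlap for every member except mmu-miR-92a, whose cold mice (−1.59 to −1.23) lie above its room temperature mice (−2.02 to −1.76), and heights are not comparable between miRNAs.

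Levels below are log2 of the signal as a fraction of the 75th percentile of its array, averaged over a miRNA's kept probes. Within the 17/20 seed group, mmu-miR-20a was at −1.59, −1.40 and −1.39 in cold mice 1, 2 and 3 and at −1.45, −1.47 and −1.54 in room temperature mice 4, 5 and 6. Mouse 1 was the lowest of all and the groups overlapped. The difference, cold minus room temperature, was 0.03 ± 0.123 (SE, 95% interval −0.26 to 0.31, limma adjusted p = 0.881). Its X-linked counterpart mmu-miR-20b was at −2.84, −2.67 and −2.69 in the cold mice and at −3.01, −2.76 and −2.82 in the room temperature mice. Mouse 4 was lowest, and cold mouse 1 lay within the room temperature range. The difference was 0.13 ± 0.131 (95% interval −0.17 to 0.44, limma adjusted p = 0.51).

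In the 18 seed group only mmu-miR-18a could be fitted, through 1 of its 2 probes. It was at −5.61, −5.38 and −5.48 in the cold mice and at −5.62, −5.49 and −5.21 in the room temperature mice. The ranges were nearly the same apart from a high value in mouse 6, and the difference was −0.05 ± 0.150 (95% interval −0.40 to 0.30, limma adjusted p = 0.835). In unscaled units that probe, A_54_P2477, read 12.9, 20.1 and 20.5 in mice 1 to 3 and 20.1, 19.2 and 38.1 in mice 4 to 6, and the lowest signals that were well above background were 7.14 to 12.9 units by array.

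In the 19 seed group, mmu-miR-19a was at −3.35, −3.06 and −3.03 in the cold mice and at −3.15, −2.74 and −2.79 in the room temperature mice. Room temperature mouse 4 lay among the cold mice. The difference was −0.25 ± 0.163 (95% interval −0.63 to 0.12, limma adjusted p = 0.312). Its neighbour in the cluster, mmu-miR-19b, was at −0.96, −0.38 and −0.50 in the cold mice and at −0.80, −0.45 and −0.57 in the room temperature mice. Mice 1 and 4, the mice with 2 arrays each, were the lowest of their groups. The difference was −0.0095 ± 0.186 (95% interval −0.44 to 0.42, limma adjusted p = 0.971), the widest interval of the 6 members.

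In the 92 seed group, mmu-miR-92a was at −1.59, −1.23 and −1.23 in the cold mice and at −2.02, −1.85 and −1.76 in the room temperature mice. Every cold mouse was above every room temperature mouse. The difference was 0.53 ± 0.152 (95% interval 0.17 to 0.88), with a limma adjusted p of 0.0545 that narrowly missed the threshold. In all 30 miRNAs had a smaller p and 23 a larger positive difference. Unscaled, mmu-miR-92a was at 366, 568 and 586 units in cold mice 1 to 3 and at 433, 375 and 660 units in mice 4 to 6, which overlap, so the separation appeared with the scaling. The 2 arrays of mouse 4 differed by 0.43 for mmu-miR-92a, most of the size of the group difference. Without cold mouse 1 the difference was 0.65 with a limma adjusted p of 0.0189, and without any 1 of the other 5 mice it stayed above the threshold, at adjusted p between 0.104 and 0.153. The erythroid miRNAs, which blood in the tissue carries, differed the same way: miR-451 by 0.64 (limma adjusted p = 0.058) and miR-144 by 0.83 (limma adjusted p = 0.053). Their summed unscaled signal was 11123 to 23867 units in cold mice and 10954 to 22103 in room temperature mice, and their part in the mmu-miR-92a values was not tested.

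**Figure D2:**
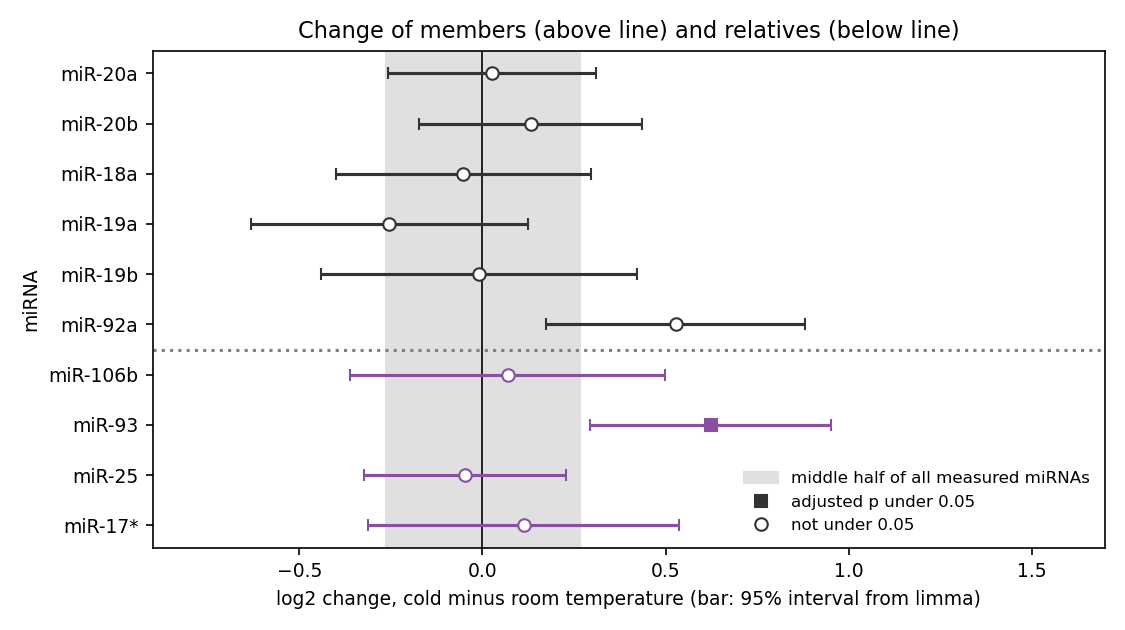
Log2 change, cold minus room temperature, with 95% intervals from limma (n = 3 mice per group), for the 6 measured members above the dotted line and the measured relatives below it, over a grey band from the lower to the upper quartile of all 189 miRNAs (−0.26 to 0.27). The intervals of mmu-miR-92a and miR-93 lie to the right of 0, and only miR-93 passed the adjusted threshold.

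By locus, the median difference was −0.05 over the 3 measured members encoded only in miR-17/92 (−0.25 to 0.03). It was 0.13 for mmu-miR-20b, which alone stood for miR-106a/miR-363, and 0.26 over mmu-miR-19b and mmu-miR-92a, which both clusters encode (−0.0095 and 0.53). The medians by seed group were 0.08 for 17/20 (2 of 4 members measured), −0.05 for 18 (1 of 2), −0.13 for 19 (2 of 2) and 0.53 for 92 (1 of 2). No test separates these medians.

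The 6 measured members had 11 kept probes of the 22 member probes. When each of the 329 kept probes was fitted on its own, an analysis added after the data were seen, 80 probes (24.3%) passed limma's adjusted threshold, and 2 of the 11 member probes did. Both were higher in the cold: probe A_54_P1305 of mmu-miR-20a and probe A_54_P2496 of mmu-miR-92a. Groups did not overlap for 5 of the 11, a share near the 44.7% of all 329 kept probes.

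For mmu-miR-20a the probes went opposite ways. Probe A_54_P1305 was at −1.85, −1.80 and −1.75 in the cold mice and at −2.25, −2.14 and −2.28 in the room temperature mice, a difference of 0.42 ± 0.127 (limma adjusted p = 0.0462). Probe A_54_P1306 was at −1.33, −1.0 and −1.03 in the cold mice and at −0.65, −0.80 and −0.79 in the room temperature mice, a difference of −0.37 ± 0.147 (limma adjusted p = 0.111). Neither probe had overlapping groups, and their mean gave the difference near 0 reported above for mmu-miR-20a. The log2 ratio of the first probe to the second, which does not depend on the scaling of the array, was −0.52, −0.80 and −0.72 in mice 1 to 3, all cold, and −1.60, −1.34 and −1.49 in mice 4 to 6. This gap of 0.80 ranked 15 of 115 by size among the miRNAs with 2 kept probes.

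The probes of mmu-miR-20b diverged in the same manner. Probe A_54_P2834 differed by 0.42 ± 0.155 (limma adjusted p = 0.0883) with groups that did not overlap, and probe A_54_P3922 by −0.16 ± 0.134 (limma adjusted p = 0.439). Their log2 ratio came to −1.18, −0.99 and −0.88 in cold mice 1 to 3 and to −1.66, −1.65 and −1.47 in mice 4 to 6, a gap of 0.58 with no overlap. For mmu-miR-19b the probes were at 0.14 and −0.16, with ratios that overlapped between the groups. The probes of mmu-miR-19a, at −0.34 and −0.17, and of mmu-miR-92a, at 0.56 ± 0.216 (limma adjusted p = 0.103) and 0.50 ± 0.130 (limma adjusted p = 0.0332), had the same sign. Of the 5 members with 2 kept probes, 3 had opposite signs and 2 had ratios without overlap. Over all 115 such miRNAs these shares were 42.6% and 44.3%, so probes that disagree were common on these arrays.

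**Figure D3:**
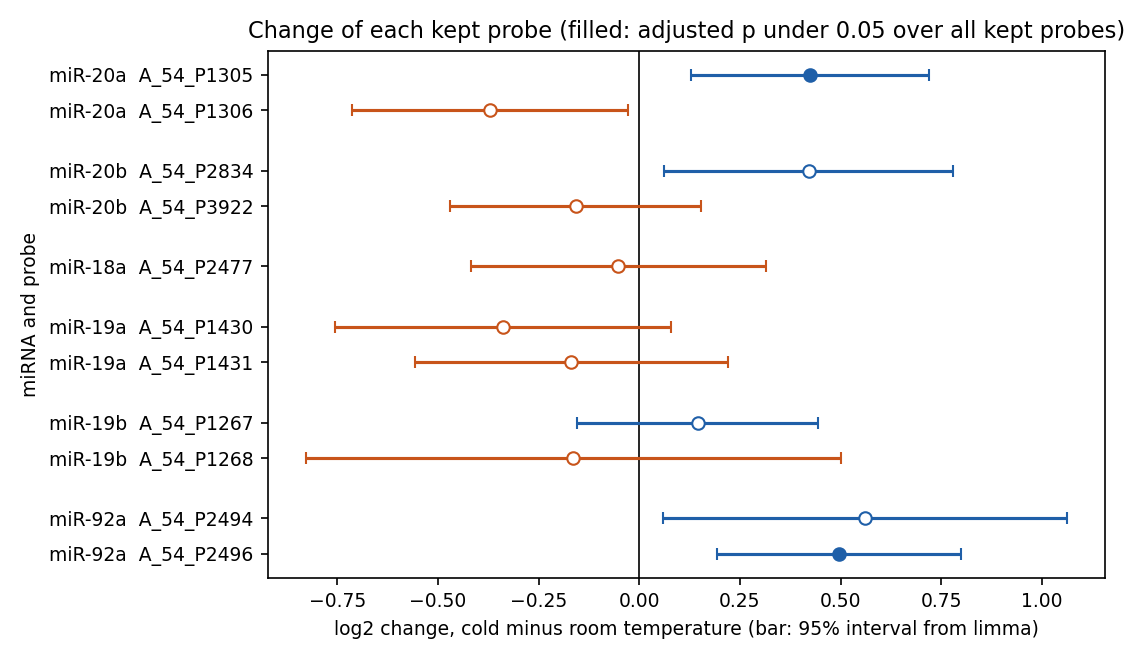
Log2 change, cold minus room temperature, of each kept member probe with its 95% interval from limma (n = 3 mice per group), filled where it passed the adjusted threshold over all 329 kept probes, blue above 0 and orange below. The probes of mmu-miR-20a and of mmu-miR-20b lie on opposite sides of 0, and both probes of mmu-miR-92a lie above it.

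The 4 members without a kept probe had signals at or near background. Their scaled signals are given in thousandths of the array's 75th percentile and were compared with an exact permutation test, 2-sided, whose smallest possible p for 3 mice against 3 is 0.1. For mmu-miR-17 they averaged 5.31 ± 1.85 in the cold and 7.39 ± 1.52 at room temperature (SD, n = 3, exact permutation p = 0.2, adjusted over the 4 members 0.267). For mmu-miR-106a they averaged 4.50 ± 0.666 and 8.48 ± 1.72 (exact permutation p = 0.1, adjusted 0.2), with no overlap between groups. mmu-miR-18b averaged −1.05 and −1.02 (exact permutation p = 0.8). mmu-miR-363 averaged −1.16 and −0.55 (exact permutation p = 0.1, adjusted 0.2), below 0 after background subtraction in all 6 mice. No fold is given for these 4, since their levels are bounded by the background.

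The mmu-miR-106a values again came from probes that differed. Probe A_54_P2459 read −0.039, 0.516 and 0.345 unscaled units in cold mice 1 to 3 and 8.32, 10.3 and 16.2 in mice 4 to 6. Detection came to 0 of the cold arrays and 2 of the others. The other probe, A_54_P2458, read 5.05, 8.25 and 7.48 units in cold mice 1 to 3 and 4.56, 5.85 and 10.8 in mice 4 to 6, and was detected on no array. After scaling, the first probe was at 0.327 ± 0.319 thousandths in the cold and 10.6 ± 1.94 at room temperature, and the second at 8.67 ± 1.05 and 6.36 ± 1.57 (SD, n = 3). Neither pair of groups overlapped, in opposite directions (exact permutation p = 0.1 each, adjusted over the 11 member probes not kept 0.22). Scaled groups also did not overlap for 2 probes detected on no array. These were A_54_P3055 of mmu-miR-18b (−2.08 cold, −0.789 room temperature) and A_54_P2677 of mmu-miR-363 (−1.17 and 0.0767). The other probes of mmu-miR-18b and mmu-miR-363 had overlapping groups. Groups without overlap thus occurred at background too.

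One probe of mmu-miR-17, A_54_P2597, read 0.598, 3.97 and 5.95 units in cold mice 1 to 3 and 7.72, 8.01 and 14.5 in mice 4 to 6, with no overlap. The other, A_54_P2596, read 3.47, 6.27 and 6.16 units in mice 1 to 3 and 4.94, 3.46 and 11.2 in mice 4 to 6, with mouse 6 high and the rest intermixed. Scaled, the first averaged 4.05 ± 2.86 and 9.13 ± 1.25 thousandths (exact permutation p = 0.1, adjusted 0.22) and the second 6.57 ± 1.02 and 5.66 ± 2.07 (exact permutation p = 0.5). Each of the 4 members of the 17/20 seed group therefore had 1 probe with a higher and 1 with a lower scaled mean in the cold mice. For mmu-miR-17 and mmu-miR-106a these probes were at or near background. Opposite signs were also found for 42.6% of the 115 miRNAs with 2 kept probes. That share can be set beside mmu-miR-20a and mmu-miR-20b only, since no share was taken over probes that were not kept. The cause of the opposite directions was not tested.

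**Figure D4:**
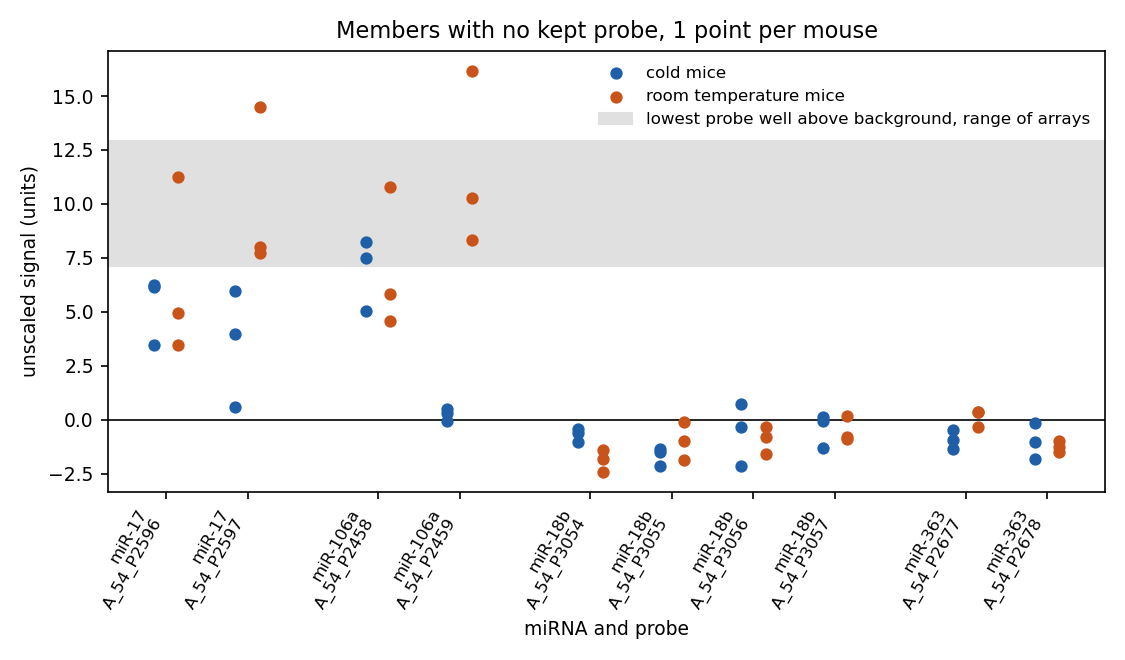
Unscaled signal in units of each probe of the 4 members with no kept probe, with 1 point per mouse and a grey band for the lowest signal of any probe well above background on each of the 8 arrays (7.14 to 12.9 units). The cold mice of mmu-miR-106a probe A_54_P2459 lie at 0 and its room temperature mice at 8.32 to 16.2, and all probes of mmu-miR-18b and mmu-miR-363 lie near 0.

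Ratios of members within an array are free of the array's scaling. Among the 15 pairs of measured members, 7 had log2 ratios that did not overlap between the groups, close to the 42.5% of all 17766 pairs of measured miRNAs. All 5 pairs with mmu-miR-92a were among the 7. They share that miRNA, the only measured member without overlap on its own, and the same mice. They are therefore not 5 separate observations. The ratio of mmu-miR-19a to mmu-miR-92a was −1.76, −1.83 and −1.81 on the log2 scale in the cold mice and −1.13, −0.89 and −1.03 in the room temperature mice. In both groups these ratios were tight, and mmu-miR-92a was higher relative to mmu-miR-19a by 0.78 in the cold. The same quantity was 0.58 relative to mmu-miR-18a, 0.54 relative to mmu-miR-19b, 0.50 relative to mmu-miR-20a and 0.40 relative to mmu-miR-20b. For mmu-miR-19b, mmu-miR-20a and mmu-miR-20b the level is a mean of probes with opposite signs, and their ratios depend on that mean. Probe A_54_P1305 of mmu-miR-20a and probe A_54_P2834 of mmu-miR-20b each differed by 0.42, near the 0.53 of mmu-miR-92a. Their partner probes differed by −0.37 and −0.16. Ratios to single probes were not taken. The remaining 2 pairs without overlap both held mmu-miR-19a, which was lower in the cold relative to mmu-miR-19b by −0.24 and relative to mmu-miR-20b by −0.39.

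**Figure D5:**
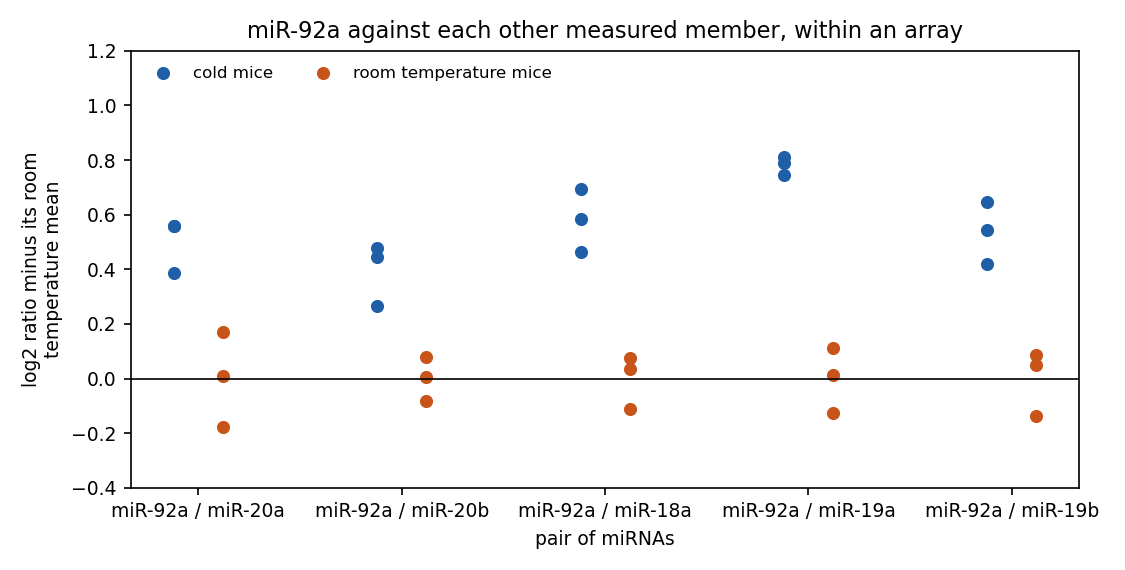
Log2 ratio of mmu-miR-92a to each other measured member, minus that ratio's mean over the room temperature mice, with 1 point per mouse. For all 5 partners the cold mice lie above the room temperature mice, with mean gaps between 0.40 and 0.78. The levels of mmu-miR-19b, mmu-miR-20a and mmu-miR-20b are means of probes with opposite signs, and ratios to single probes are not shown. The 5 ratios share mmu-miR-92a and are not separate observations.

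For each measured member the closest of the other 188 miRNAs was sought, by the mean absolute difference of log2 levels over the 6 mice after each miRNA's own mean was taken off. The smallest distance was 0.0382, between mmu-miR-20a and miR-25 of the third paralogous cluster. The mmu-miR-20a profile is the mean of probes that differed by 0.42 and −0.37, so this closeness holds for the mean and not for each probe. Among the other members, the closest were miR-322 for mmu-miR-18a (0.0465), miR-542-3p for mmu-miR-19a (0.0621), miR-26a for mmu-miR-19b (0.0476) and miR-99b for mmu-miR-20b (0.0563). For mmu-miR-92a the closest was miR-193* at 0.10, with miR-93 next at 0.102. No member's closest profile was another member: the best-placed fellow member ranked between 6 and 17 of 188 for 5 members and 32 for mmu-miR-92a. Each member had only 5 fellow members among the 188, so these ranks do not show that members were unlike each other. Whether the ranks differ from those of unrelated miRNAs was not tested. The median distance to all miRNAs was between 0.198 and 0.302.

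The third paralogous cluster, miR-106b/25, carries the same seeds: miR-106b and miR-93 have the 17/20 seed and miR-25 the 92 seed. miR-93 was at −2.38, −2.10 and −2.03 in the cold mice and at −2.73, −2.90 and −2.76 in the room temperature mice, with no overlap. It rose by 0.62 ± 0.142 (SE, limma adjusted p = 0.0222). miR-106b differed by 0.07 ± 0.185 (limma adjusted p = 0.829) and miR-25 by −0.05 ± 0.119 (limma adjusted p = 0.819). Among the other miRNAs with the 92 seed, miR-32 was well above background on 1 cold and 3 room temperature arrays, and miR-367 and miR-92b on none. Of these 6 relatives 3 were measured, and 1 passed the test, against 15.3% of all 189 measured miRNAs. Of the 6 passenger strands of the clusters on the array, the strand that is usually degraded, only miR-17* was measured. It was detected on all 8 arrays, with 15.3 ± 5.09 (cold) and 17.9 ± 5.47 (room temperature) unscaled units, SD over 3 mice, and differed by 0.11 ± 0.183 (limma adjusted p = 0.7). Its partner on the same hairpin, mmu-miR-17, was detected on 1 of the 8 arrays, although different probes' signals cannot be set against each other as levels.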

How the data were processed

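The deposited files hold each array's scanner output, 1-colour intensity in linear units after background subtraction, written by Agilent Feature Extraction 10.7.3.1 per the file headers (9.5.3.1 per the submitters' processing notes). The authors' deposited value table held the same intensities (largest difference 0). Control and outlier spots (2.09% to 2.63% of 11540 miRNA spots) were left out. No spot was saturated. Spot means per probe were scaled to the array's 75th percentile, computed from the 267 of 1712 probes that all 8 arrays marked as well above background, floored at 0.01 and logged (log2). The filter asked that over 0.5 of a probe's spots carry that mark on every array of either group (329 probes, 189 miRNAs), and a miRNA took the mean of its kept probes. Arrays of 1 mouse were averaged. Cold minus room temperature was tested in R 4.3.3 by limma 3.58.1 (lmFit, eBayes) at a Benjamini-Hochberg adjusted p of 0.05, after a test on simulated data. Members without a kept probe were compared by exact permutation tests (scipy 1.17.1). The miRNAs named are the members, their listed relatives, their passenger strands, tissue markers and each member's closest profile. The members and lists were chosen with earlier results of these data known. Alternatives were other scalings, a normexp background (offset 50), other probe summaries and filters, a floor of 0.1, the first array only, and leaving out each mouse. Normexp used the median spot signal and was followed by quantile normalisation in place of the percentile scaling. Number of arrays and mice limits the precision. The array files name no genome build, and positions are RefSeq's (GRCm38.p6).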

Additional observations from a re-analysis of the deposited data

How the results depend on the processing

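The difference of mmu-miR-92a was above 0 in all 17 alternatives, from 0.09 with no scaling (limma adjusted p = 0.868) to 0.65 without cold mouse 1. It passed limma's adjusted threshold in 5. These were quantile normalisation (0.64, adjusted p = 0.0158), normexp background followed by quantile normalisation (0.55, 0.017) and brightest probe (0.50, 0.029). The others were first array only (0.49, 0.047) and without cold mouse 1 (0.65, 0.0189). mmu-miR-18a passed once, when the scanner software's total signal was used (−0.57, adjusted p = 0.0438), but it had entered the test through the room temperature group alone, where it was higher, so this call supports no difference. The number of members that passed was 1 in each of these 6 settings. Over all 189 miRNAs, 43 passed with quantile normalisation, 37 with the brightest probe and 37 with total signal. That count was 31 with the first array only, 33 without cold mouse 1 and 19 with normexp. With each probe as its own feature, an analysis added after the data were seen, 2 members and 80 of 329 probes passed. Leaving out 1 mouse gave 0 to 1 members. mmu-miR-19a was below 0 in every alternative run.

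Differences near 0 changed sign. That of mmu-miR-20a was −0.047 with the percentile over all probes, −0.41 with no scaling, −0.0089 scaled to 26 control probes, −0.097 with normexp, −0.37 with the brightest probe and −0.16 with total signal, and −0.0064 to 0.090 without 1 mouse. That of mmu-miR-19b was 0.018 with quantile normalisation, 0.14 with the brightest probe, 0.039 with total signal and 0.010 with the first array, and −0.13 to 0.16 without 1 mouse. That of mmu-miR-20b was −0.31 with no scaling, −0.16 with the brightest probe, −0.038 with total signal and −0.0046 with the floor of 0.1. That of mmu-miR-18a was −0.14 to 0.063 without 1 mouse. The brightest probe and the mean differ by construction where probes disagree.

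With no scaling the median over all miRNAs was −0.46, and the medians were −0.49 for members encoded only in miR-17/92, −0.18 for those of both clusters, −0.36 for the 17/20 seed, −0.57 for the 19 seed and −0.43 for all members. The 17/20 median was −0.020 with normexp, −0.26 with the brightest probe and −0.099 with total signal. The miR-17/92 median was −0.34 with the brightest probe and −0.33 with total signal.

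Over all miRNAs, 29 passed (16 higher, 13 lower), against 11 (1 higher, 10 lower) with no scaling, 19 with normexp, 5 with no filter on dim probes, 16 with probes well above background on all arrays, 5 with the floor of 0.1 and 80 of 329 with each probe as its own feature. Leaving out 1 mouse gave 8 to 33, and it was 11 without cold mouse 2, 14 without cold mouse 3, 13 without room temperature mouse 5 and 8 without mouse 6. Another scaling moved the split of higher and lower calls to 11 and 17 (percentile over all probes), 22 and 21 (quantile) and 13 and 15 (control probes). No paired analysis was possible because the groups share no mouse numbers. With 3 mice per group, members at background cannot be ranked or given a fold.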
